A study of Danio rerio with 16 samples.

Results

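Cardiac transcription factor genes and the Iroquois gene irx2 were followed across 4 groups of adult zebrafish hearts. The list held 10 names (irx2, tbx5, tbx20, gata4, gata5, gata6, hand2, nkx2.5, mef2ca and mef2aa). Its members were chosen by name, with earlier results of these data known and irx2 fixed as ENSDARG00000001785. Of these names 8 were found among the 14500 genes measured, as 9 identifiers, and gata4 and gata6 were not analysed here. The name table gave the symbol MEF2C to both ENSDARG00000009418 and ENSDARG00000029764 without saying which is mef2ca, so both are described, as mef2c with the identifier. The gene with the symbol MEF2A, ENSDARG00000031756, is called mef2a.

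RNA was sequenced from hearts of wild-type (WT) fish and of mutants of tert, the catalytic subunit gene of telomerase, labelled Tert (AB/hu3430) KO and called KO here. Hearts of fish aged 6 to 9 months were taken uninjured (control) or 3 days after cryoinjury, in which a cold probe kills part of the ventricle, and each of the 16 libraries pooled 3 hearts. Each of the 4 groups (control and cryoinjury in WT, control and cryoinjury in KO) had 4 libraries, which the labels call biological replicates. The design asks how hearts with and without telomerase respond to injury.

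These factors form the regulatory core of heart muscle. GATA, T-box, HAND, NK2 and MEF2 proteins bind near each other in front of genes for contractile proteins, channels and natriuretic peptides, and they act in combination during heart formation. In the adult heart many of them continue to be transcribed in cardiomyocytes. Iroquois proteins are homeobox factors, and in the mouse heart members of that family shape ventricular conduction and repolarization.

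The authors' deposited gene values, called the normalized signal here, are proportional to read counts within a library. The signal is not divided by gene length, so levels are compared between groups for 1 gene and not between genes. The 16 libraries held 5611576 to 14831664 reads over the listed genes, and the 9 identifiers held 47 to 3280 reads in a library. Changes are differences of group means on the log2(signal + 1) scale with their standard error (SE), from limma fitted over all genes, and an adjusted p under 0.05 counts as passing. All 16 measured markers of cardiomyocytes were detected in every library. As a check of genotype, tert itself was at 1.19 to 5.16 in the 8 WT libraries and 5.65 to 6.84 in the 8 KO libraries; hu3430 is a point mutation, so a transcript level does not test it. In KO cryoinjury libraries 1 and 2 the skin keratin gene krt5 was at 337 and 887, against 4.68 to 75.4 in the other 14 libraries, and both libraries were left out together as an alternative.

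Most of these genes were lower 3 days after cryoinjury, in both genotypes. In WT hearts 8 of the 9 fell and none rose, beside 21.7% of all genes tested that fell and 24.2% that rose. In KO hearts 7 fell and 1, mef2c ENSDARG00000009418, rose, beside 22.4% of all genes that fell and 25.2% that rose. The median change of the 9 was -0.78 in WT and -0.99 in KO, where the median of all genes was -0.01 and -0.02. Injured and control libraries did not overlap in 7 members that were lower in WT, beside 20.4% of all genes, and in 6 that were lower and 1 that was higher in KO, beside 18.5% and 22.1%. In 5 of the 9 (irx2, tbx5, tbx20, hand2 and nkx2.5) the 8 control and the 8 injured libraries did not overlap, a separation in the lower direction that 9.77% of all genes showed. The T-box gene tbx5 and irx2 fell most among the members. In bulk hearts, fewer cells of a type and less RNA per cell cannot be told apart. Scaling to library totals alone raised the median of all genes to 0.30 in WT and 0.20 in KO, and turned the split of genes called higher and lower from 3506 and 3149 to 6519 and 1227 in WT, and from 3649 and 3253 to 5330 and 1540 in KO. Directions are therefore relative to the scale of the deposited values.

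**Figure D1:**
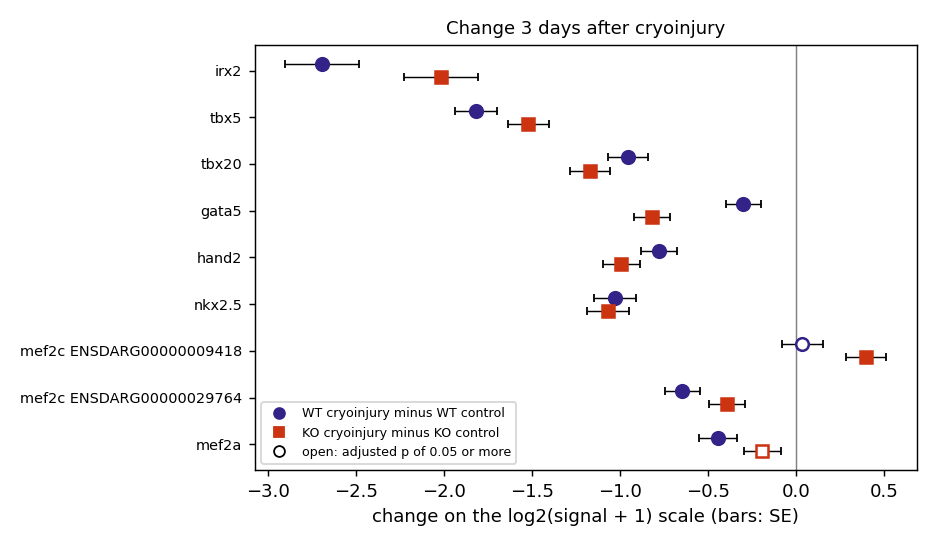
Change 3 days after cryoinjury for the 9 identifiers, as the difference of group means on the log2(signal + 1) scale (horizontal axis), with circles for WT and squares for KO, bars for the SE and open symbols for an adjusted p of 0.05 or more. The lowest values are those of irx2, -2.69 in WT and -2.02 in KO, and mef2c ENSDARG00000009418 is above 0 in KO, at 0.40.

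The homeobox gene irx2 stood at 37.8, 34.00, 65.5 and 33.3 in WT control libraries 1 to 4, and at 7.74, 5.66, 4.62 and 4.44 in WT cryoinjury. In KO control it stood at 76.9, 79.0, 67.7 and 62.9, and in KO cryoinjury at 23.8, 18.2, 13.2 and 14.1. Every injured library of a genotype was below every control library of that genotype, and WT control library 3 was apart from the other WT controls. In WT hearts the mean went from 42.7 ± 15.4 to 5.61 ± 1.52 (SD, n = 4), a fall by 2.69 on the log2 scale (SE 0.21, limma adjusted p = 2.91e-08) and 7.60-fold in the mean signal. In KO hearts it went from 71.6 ± 7.60 to 17.3 ± 4.83, a change of -2.02 (SE 0.21, limma adjusted p = 7.55e-07) and 4.13-fold. Among the 14500 genes, only 3 had a more negative change than irx2 in WT and 6 in KO. As irx2 was listed with earlier results of these data known, these ranks are a description and not a test. The WT injured libraries held 47 to 74 irx2 reads, where adding 1 to the signal understates the log2 change.

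The T-box gene tbx5, which in zebrafish is required for heart looping and pectoral fin buds, followed the same order of groups. It was at 63.0, 64.7, 78.5 and 56.5 in WT control libraries 1 to 4 and at 20.4, 17.4, 17.0 and 16.5 in WT cryoinjury. KO control libraries were at 94.7, 93.2, 86.3 and 89.6, and KO cryoinjury libraries at 37.7, 29.6, 24.9 and 33.3. These 4 ranges did not overlap at any point, and ran from KO control at the top through WT control and KO cryoinjury to WT cryoinjury. In WT hearts tbx5 changed by -1.82 (SE 0.12, limma adjusted p = 4.34e-09), 3.69-fold lower in the mean signal, and in KO hearts by -1.52 (SE 0.12, limma adjusted p = 2.67e-08), 2.90-fold lower. For irx2 the order of groups was the same, but the neighbouring ranges of KO and WT control overlapped through WT control library 3. The means of tbx20, hand2 and nkx2.5 ran in this order too.

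**Figure D2:**
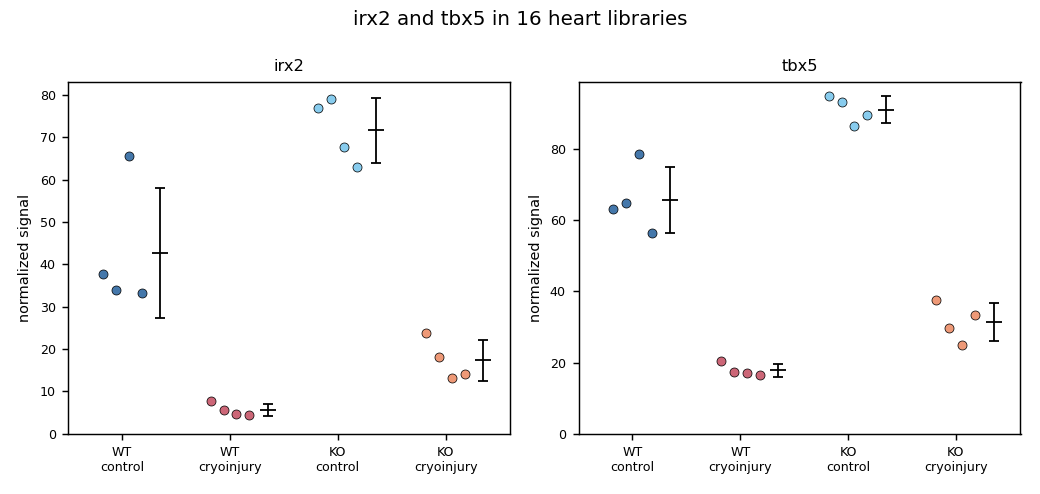
Normalized signal (vertical axis, from 0) of irx2 and tbx5 in each library, by group. Points are libraries 1 to 4 from left to right and the bar beside them is the mean ± SD; the 4 groups of tbx5 occupy separate ranges, and WT cryoinjury is the lowest group for both genes.

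The other T-box member, tbx20, which acts in cardiac chamber formation, also fell. It was at 346, 292, 371 and 295 in WT control and 173, 159, 195 and 144 in WT cryoinjury libraries, a change of -0.95 (SE 0.11, limma adjusted p = 2.70e-06). In KO control it was at 492, 392, 405 and 371, and in KO cryoinjury at 177, 165, 183 and 210, a change of -1.168 (SE 0.11, limma adjusted p = 3.33e-07). The NK2 homeobox gene nkx2.5, an early marker of cardiac progenitors that also maintains ventricular identity in zebrafish, fell in both genotypes, from 161 to 236 in the 8 control libraries to 82.9 to 126 in the 8 injured ones. Its mean went from 189 ± 24.7 to 91.8 ± 6.22 in WT (-1.03, SE 0.12, limma adjusted p = 2.02e-06) and from 207 ± 21.2 to 99.2 ± 18.7 in KO (-1.07, SE 0.12, limma adjusted p = 1.56e-06). The basic helix-loop-helix gene hand2, needed in zebrafish for myocardial precursors, went from 185 ± 33.3 to 106 ± 4.15 in WT (-0.78, SE 0.10) and from 243 ± 24.3 to 121 ± 5.91 in KO (-0.99, SE 0.10). Its 8 injured libraries lay between 102 and 130 and its 8 control libraries between 153 and 275, and both falls passed (limma adjusted p = 9.79e-06 and 7.96e-07).

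The zinc finger gene gata5, which in zebrafish promotes myocardial differentiation, had a smaller change in WT, -0.30, than the T-box, HAND and NK2 members, at -0.78 to -1.82. WT control libraries stood at 202, 192, 220 and 179 and WT cryoinjury libraries at 140, 164, 159 and 182, so that the groups overlapped through WT control library 4 and WT cryoinjury library 4. That change was -0.30 (SE 0.10, limma adjusted p = 0.0210). It did not pass without WT control library 3 (-0.25, limma adjusted p = 0.0725) or WT cryoinjury library 1 (-0.23, limma adjusted p = 0.0810), and library totals alone gave 0.06 (limma adjusted p = 0.614). In KO control gata5 was at 275, 273, 259 and 257 and in KO cryoinjury at 132, 134, 171 and 169, a change of -0.82 (SE 0.10, limma adjusted p = 4.07e-06) with no overlap. The difference between these responses was -0.52 (SE 0.14) and did not pass (limma adjusted p = 0.384).

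The MEF2 genes have MADS-box proteins that activate muscle genes, and their changes with injury ran from -0.65 to 0.40. The gene mef2c ENSDARG00000029764 fell in WT from 109 ± 4.68 to 69.7 ± 6.88 (-0.65, SE 0.10, limma adjusted p = 4.79e-05). In KO it fell from 95.9 ± 12.1 to 72.7 ± 7.95 (-0.39, SE 0.10, limma adjusted p = 0.00392), with overlap between KO control library 2 at 79.7 and KO cryoinjury library 4 at 82.6. That KO call ended when KO cryoinjury libraries 1 and 2 were both left out (-0.28, adjusted p = 0.0766 in limma) and with library totals alone (-0.16, limma adjusted p = 0.136). The other identifier, mef2c ENSDARG00000009418, was at 17.3, 15.3, 16.7 and 15.6 in WT control and at 15.1, 15.9, 17.1 and 18.7 in WT cryoinjury. These overlapping values gave 0.04 (SE 0.12, limma adjusted p = 0.827), which library totals alone raised to 0.37 (limma adjusted p = 0.0107). In KO it rose from 13.1, 13.1, 9.45 and 14.9 to 16.5, 15.8, 16.9 and 17.9 (0.40, SE 0.12, limma adjusted p = 0.00925), the opposite direction to the other copy. Whether the authors' counting shared out reads of close copies, such as this pair or tbx5 and tbx5b, was not tested.

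The single mef2a gene fell in WT from 34.03 ± 2.45 to 25.0 ± 4.03 (-0.44, SE 0.11, limma adjusted p = 0.00246), a call that ended with library totals alone (-0.10, limma adjusted p = 0.459). In KO its means were 30.5 ± 2.31 and 26.6 ± 1.71 (-0.19, SE 0.11, limma adjusted p = 0.152), and the groups overlapped. The difference between the WT and KO responses of mef2a was 0.25 (SE 0.15) and did not pass (limma adjusted p = 0.687).

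**Figure D3:**
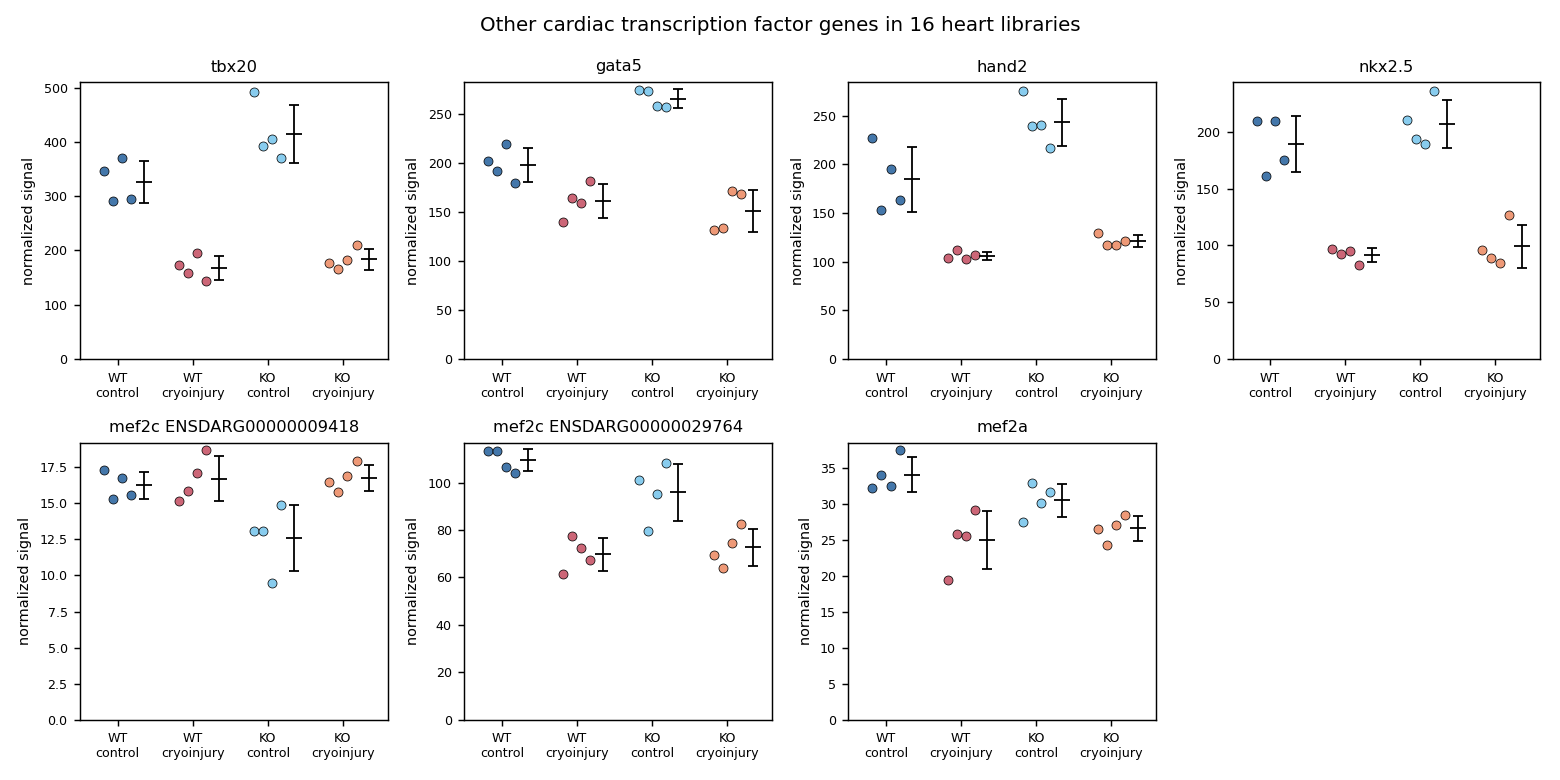
Normalized signal (vertical axis, from 0) of the other 7 identifiers in each library, by group, with libraries 1 to 4 from left to right and the mean ± SD beside them. Control libraries of tbx20, hand2 and nkx2.5 are all above the injured libraries, whereas mef2c ENSDARG00000009418 is lowest in KO control, at 9.45 to 14.9.

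Cardiomyocyte markers also moved with injury. For the counts of markers here, the shares of all genes were 21.7% that fell and 24.2% that rose in WT. In KO they were 22.4% and 25.2%. Of the 16 measured cardiomyocyte markers 13 fell and 2 rose in each genotype, with a median change of -0.83 in WT and -0.66 in KO. Their summed signal ranged from 105813 to 119063 in WT control and from 60029 to 65502 in WT cryoinjury, and from 89815 to 111058 in KO control and from 55928 to 77513 in KO cryoinjury. The changes of irx2 and tbx5 were below that of each of these 16 markers in both genotypes, of which the most negative was -1.18 in WT and -0.82 in KO. In WT, hand2, gata5, mef2a and both mef2c identifiers changed less than the marker median, with 10 to 13 markers more negative, and tbx20 and nkx2.5 lay below it, with 5 and 1 markers more negative. In KO, tbx20, hand2 and nkx2.5 also changed below all 16 markers, gata5 had 1 marker more negative, and mef2a and the mef2c identifiers had 13 or 14. Markers of epicardium and fibroblasts rose in 14 of 16 genes in each genotype, and their summed signal went from 2190 to 3549 in WT control and 2389 to 2683 in KO control to 10029 to 11917 in WT cryoinjury and 9243 to 12357 in KO cryoinjury. Leukocyte markers rose in 16 of 17 genes in each genotype, from sums of 462 to 693 and 480 to 586 in WT and KO control to 1494 to 1734 and 1339 to 1605 after injury. None of these markers was at 0 in any library. The part of these shifts in the members' changes was not tested.

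Between genotypes, irx2 and tbx5 were higher in KO than in WT hearts after injury. These were 2 of the 9 members, and none was lower, beside 0.29% of all genes tested that were higher and 0.152% that were lower. Library totals alone turned the split of all genes called higher and lower from 42 and 22 to 38 and 62, and left both members called. For irx2 the mean was 3.09-fold higher in KO cryoinjury than in WT cryoinjury (1.46, SE 0.21, limma adjusted p = 0.00668), and for tbx5 it was 1.76-fold higher (0.77, SE 0.12, limma adjusted p = 0.00902). For both genes the lowest KO injured library, 13.2 for irx2 and 24.9 for tbx5, was above the highest WT injured library, 7.74 and 20.4. Both calls ended when KO cryoinjury libraries 1 and 2 were left out together, where the difference was 1.174 for irx2 (limma adjusted p = 0.0798) and 0.67 for tbx5 (limma adjusted p = 0.0803). With fewer KO libraries in that fit, the genes called among all tested went from 64 to 5. For tbx5 the call also ended with only the 8 injured libraries in the fit (limma adjusted p = 0.0575). In KO cryoinjury libraries 1 to 4, krt5 was at 337, 887, 12.02 and 75.4. The summed skin and epithelial markers were at 5811, 8027, 6702 and 6342 there, beside 5982 to 6530 in WT cryoinjury. Abundant genes weigh most in such a sum. The mean log2(signal + 1) of the same 10 markers was 7.598, 8.478, 6.451 and 7.172, beside 6.090 to 6.446 in WT cryoinjury. Each KO injured library was thus above each WT injured one, and the median change of the 10 markers was 0.64. Of these 10 markers 1 was higher in KO than in WT injured hearts, and epcam was at 0 in at least 1 library; their part in the irx2 and tbx5 differences was not tested. No cardiomyocyte marker passed between the genotypes after injury, and their changes were -0.32 to 0.26. Their summed signal was 56977, 55928, 73260 and 77513 in KO cryoinjury libraries 1 to 4, beside 60029 to 65502 in WT cryoinjury. KO cryoinjury libraries 1 and 2 were thus below the WT range, and libraries 3 and 4 above it. The part of this spread in the irx2 and tbx5 differences was not tested.

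The third member with no overlap between injured genotypes was hand2, at 117 to 130 in KO and 102 to 112 in WT, a difference of 0.19 that did not pass (SE 0.10, limma adjusted p = 0.485). Such a separation in the higher direction was found in 3.84% of all genes. The 6 members left overlapped, with differences of -0.09 (gata5) to 0.13 (tbx20) and limma adjusted p of at least 0.693.

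In uninjured hearts 1 member, gata5, was higher in KO than in WT, beside 0.407% of all genes that were higher and 1.08% that were lower. With library totals alone the split of all genes called higher and lower went from 59 and 156 to 74 and 117, and gata5 was still called. Higher without overlap were gata5 and tbx5, beside 3.74% of all genes, and lower without overlap was mef2c ENSDARG00000009418, beside 3.99%. The gata5 means were 266 ± 9.39 and 198 ± 17.1, and all 4 KO control libraries were above all 4 WT controls (0.43, SE 0.10, limma adjusted p = 0.0412). Leaving out single libraries ended that call for 8 of the 16, with an adjusted p of up to 0.122 without KO control library 2. It also ended in edgeR on the recovered reads (adjusted p = 0.0522), in limma without an intensity trend (adjusted p = 0.0809) and with the 8 control libraries alone (adjusted p = 0.0512).

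For irx2, tbx5 and hand2 the differences in control hearts did not pass. Of 27 alternatives, 23 for irx2, 19 for tbx5 and 22 for hand2 also gave no call. The tbx5 difference was 0.47 (SE 0.12, limma adjusted p = 0.0545), with KO libraries at 86.3 to 94.7 and WT libraries at 56.5 to 78.5. It passed without WT control library 3 (0.56, limma adjusted p = 0.0296) and with library totals alone (0.53, limma adjusted p = 0.0403). That of irx2 was 0.79 (SE 0.21, limma adjusted p = 0.0727), and without WT control library 3 it was 1.01 (limma adjusted p = 0.0135). The hand2 difference was 0.41 (SE 0.10, limma adjusted p = 0.0619), and it passed without WT control library 1 (0.51, limma adjusted p = 0.0206) and with library totals alone (0.46, limma adjusted p = 0.0404). With KO cryoinjury libraries 1 and 2 left out of the fit, the same differences of irx2 and tbx5 passed (limma adjusted p = 0.0498 and 0.0406). In DESeq2 on the recovered reads irx2, tbx5 and hand2 passed together with gata5 (adjusted p = 0.0438 for irx2, 0.00924 for tbx5 and 0.0216 for hand2). The differences of tbx20 (0.35) and nkx2.5 (0.14) did not pass, nor did those of mef2c ENSDARG00000009418 (-0.35), mef2c ENSDARG00000029764 (-0.19) and mef2a (-0.15), with limma adjusted p of at least 0.132.

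**Figure D4:**
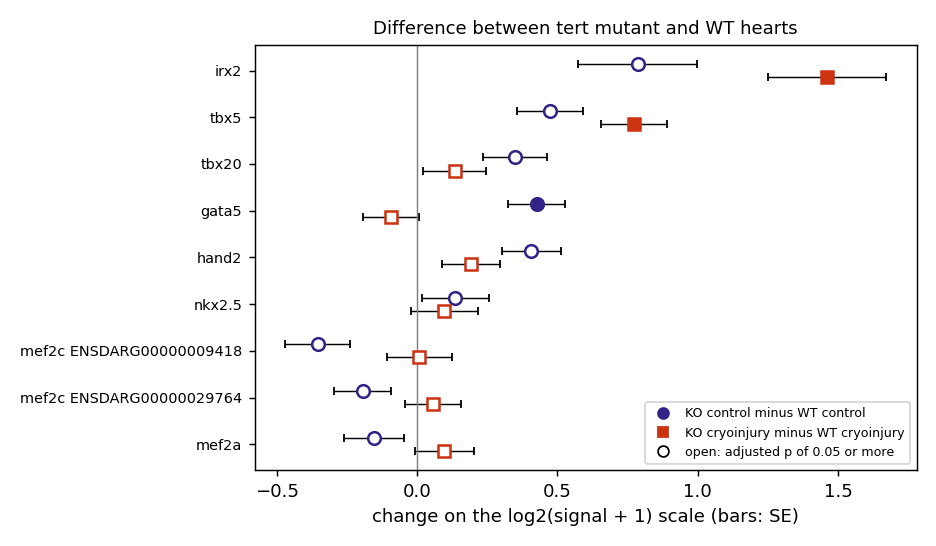
Difference between KO and WT hearts for the 9 identifiers on the log2(signal + 1) scale (horizontal axis), with circles for control and squares for injured hearts, bars for the SE and open symbols for an adjusted p of 0.05 or more. The filled symbols are irx2 (1.46) and tbx5 (0.77) in injured hearts and gata5 (0.43) in control hearts.

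No member's response to injury differed between genotypes past the threshold, and limma and edgeR called no gene of the 14500 for this interaction. At an unadjusted p under 0.05 limma gave 1191 genes, 3 of them members, and edgeR 1205 genes; DESeq2 called 20 genes, none of them a member. The 3 members were gata5, irx2, with a difference between responses of 0.68 (SE 0.30, limma adjusted p = 0.591), and mef2c ENSDARG00000009418, with 0.36 (SE 0.16, limma adjusted p = 0.596). The injury comparisons and the genotype comparisons share groups. The larger estimated genotype difference of irx2 after injury and its smaller estimated fall in KO hearts are thus the same values read in another direction. The difference between the irx2 responses was 0.45 without WT control library 3, and 0.13 to 0.90 over the alternatives.

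The relatives of these genes were taken family by family, without the members. Of the other Iroquois genes irx5 and irx6 were measured. The irx5 gene fell in KO, from 47.3 ± 11.4 to 26.0 ± 4.65 (-0.82, SE 0.17, limma adjusted p = 0.000891), and had means of 33.2 ± 5.13 and 27.8 ± 4.45 in WT (-0.25, limma adjusted p = 0.264). The irx6 values were low, with group means of 2.68 to 6.05, and its changes of -0.48 in WT and -0.81 in KO did not pass (limma adjusted p = 0.399 and 0.139). In WT control library 4 irx6 was at 0.983, against 5.13 to 10.2 in the other WT controls, and without that library the change was -1.0003 in WT (limma adjusted p = 0.0279) and passed in KO too (limma adjusted p = 0.0466). In KO control library 4 it was at 1.96, against 5.85 to 8.62, and without that library the KO change was -1.174 (limma adjusted p = 0.0345). After injury the irx5 means were 26.0 in KO and 27.8 in WT (-0.10, limma adjusted p = 0.876); whether this differed from irx2 was not tested.

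The T-box genes moved in both directions. The tbx5 copy tbx5b fell from 17.6 ± 1.74 to 4.07 ± 0.940 in WT (-1.89, SE 0.19, limma adjusted p = 4.43e-07) and from 20.6 ± 2.17 to 6.89 ± 2.78 in KO (-1.51, SE 0.19, limma adjusted p = 5.49e-06). The epicardial gene tbx18 rose from 27.1 ± 3.07 to 44.6 ± 6.00 in WT and from 33.7 ± 4.56 to 45.5 ± 4.30 in KO (limma adjusted p = 9.31e-05 and 0.00566). The tbx1 gene, a factor of the second heart field and pharynx, rose from 1.09 ± 0.223 to 6.59 ± 1.18 in WT and from 1.73 ± 1.05 to 7.51 ± 1.95 in KO (limma adjusted p = 3.39e-06 and 1.12e-05). Of the 6 T-box relatives measured, 2 rose and 1 fell in WT, beside 24.2% and 21.7% of all genes. In KO 2 rose and 3 fell, beside 25.2% and 22.4%, and the further falls were in both identifiers with the symbol tbx2. The call of ENSDARG00000006120, -0.55, ended with library totals alone (-0.34, limma adjusted p = 0.0806). These counts of 6 genes are not read as a result about the family. The median change of the 6 was 0.10 in WT and -0.29 in KO.

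Of 3 GATA relatives none passed in WT with all 16 libraries in limma, beside 21.7% of all genes that fell and 24.2% that rose. In WT each passed only under the alternatives named here, and not under the rest. The gata3 change passed without WT control library 4 (-0.52, limma adjusted p = 0.0255) or WT cryoinjury library 4 (-0.49, limma adjusted p = 0.0460). That of gata2 passed without WT cryoinjury library 4 (-0.57, limma adjusted p = 0.0282). That of gata1a, an erythroid factor, was -0.62. It passed without KO cryoinjury library 3 (limma adjusted p = 0.0442) and with the 8 WT libraries alone (limma adjusted p = 0.0243). In KO the gata1a means were 36.7 ± 13.7 and 22.3 ± 9.26, a change of -0.72 that did not pass (SE 0.30, limma adjusted p = 0.0557). It passed with the replicate block of the 8 KO libraries (limma adjusted p = 0.0144), with pseudocount 10 (limma adjusted p = 0.0488) and in DESeq2 (adjusted p = 0.04345). It also passed without WT cryoinjury library 1, KO control library 3 or 4, or KO cryoinjury library 1. The same held without KO cryoinjury libraries 1 and 2 together (limma adjusted p = 0.0106). In KO gata2, an endothelial and blood factor, fell from 17.2 ± 1.07 to 10.4 ± 3.73 (-0.72, SE 0.20, limma adjusted p = 0.00579). The other measured MEF2 gene, mef2d, fell from 143 ± 5.48 to 92.3 ± 8.22 in WT and from 155 ± 15.9 to 99.1 ± 7.37 in KO (-0.63 and -0.64, limma adjusted p = 1.27e-05 and 1.17e-05). None of these 12 family relatives passed between the genotypes with all libraries in limma. In control hearts irx5 passed without KO control library 4 (0.65, limma adjusted p = 0.0413) and tbx2 ENSDARG00000006120 without KO cryoinjury library 3 (0.53, limma adjusted p = 0.0483), and in injured hearts tbx5b passed in DESeq2 (0.78, adjusted p = 0.0452).

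Partners and regulators of the cardiac factors rose and fell in shares near those of all genes. Of 21 measured genes 6 rose and 7 fell in WT, beside 24.2% and 21.7% of all genes, and 5 rose and 5 fell in KO, beside 25.2% and 22.4%, with medians of -0.11 and -0.02. The calcium/calmodulin kinase gene camk2d2, of the kinase family that releases MEF2 from repressors in mammals, fell from 168 ± 43.5 to 53.4 ± 13.4 in WT and from 169 ± 12.9 to 75.2 ± 13.4 in KO (limma adjusted p = 1.81e-06 and 6.11e-05). Its relative camk2d1 rose from 5.22 to 13.8 and from 5.51 to 12.6 in group means (limma adjusted p = 0.000839 and 0.00212). The muscle methyltransferase gene smyd1 fell from 50.2 ± 8.63 to 23.29 ± 4.998 in WT and from 49.6 ± 6.15 to 32.5 ± 9.75 in KO (limma adjusted p = 0.000180 and 0.0125). The KO call of smyd1 ended without KO cryoinjury library 1 (-0.46, limma adjusted p = 0.0501), without libraries 1 and 2 of that group (-0.42, limma adjusted p = 0.134) and with library totals alone (-0.40, limma adjusted p = 0.0951). The chromatin remodeller gene smarca4 rose from 50.7 to 78.3 in WT and from 39.7 to 71.8 in KO in group means (limma adjusted p = 7.19e-05 and 3.44e-06).

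Of 34 other heart development factors 9 were higher and 10 lower in WT, beside 24.2% and 21.7% of all genes, and 9 were higher and 11 lower in KO, beside 25.2% and 22.4%. Their medians were -0.01 and 0.08, and these counts are not read as a result about the list. Those that rose included the epicardial and mesenchymal genes wt1b and prrx1. The wt1b gene went from 11.1 ± 1.27 to 42.5 ± 6.02 in WT and from 9.09 ± 2.85 to 51.3 ± 13.3 in KO (limma adjusted p = 5.43e-07 and 3.35e-08). The prrx1 gene went from 2.56 ± 0.765 to 13.3 ± 2.95 and from 1.93 ± 0.265 to 12.9 ± 1.61 (limma adjusted p = 8.04e-08 and 2.48e-08). Among those that fell was the nuclear receptor gene nr2f1, related to factors of atrial identity, from 30.0 to 18.1 in WT and from 44.6 to 19.0 in KO in group means (limma adjusted p = 0.00218 and 1.21e-05), where the WT call ended with library totals alone (-0.36, limma adjusted p = 0.0689). In control hearts 2 genes of this list were higher in KO, beside 0.407% of all genes. They were the flow-responsive gene klf2a (282 ± 46.2 against 143 ± 41.5, limma adjusted p = 0.00773) and the epicardial gene tcf21 (28.9 ± 3.10 against 18.3 ± 1.65, limma adjusted p = 0.0158). The tcf21 call ended without WT control library 4 and without KO control library 1 or 2, with an adjusted p of up to 0.0587.

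A list of heart and muscle genes, called cardiac targets here, was drawn up by name. Whether the members act on these genes was not tested. They fell in larger part than all genes. Of 54 measured cardiac target genes 37 fell and 7 rose in WT, beside 21.7% and 24.2% of all genes, and 38 fell and 11 rose in KO, beside 22.4% and 25.2%, with medians of -0.74 and -0.64. The connexin gene gja3 went from 86.3 ± 18.1 to 22.3 ± 1.43 in WT and from 116 ± 3.53 to 35.1 ± 5.31 in KO, and it was higher in KO than in WT after injury (0.62, SE 0.13, limma adjusted p = 0.0375). That difference was 0.58 and did not pass when KO cryoinjury libraries 1 and 2 were both left out (limma adjusted p = 0.161), and leaving out single libraries ended the call for 8 of the 16, with an adjusted p of up to 0.120 without KO cryoinjury library 1. The gja3 call also ended with the 8 injured libraries alone (limma adjusted p = 0.0697), in limma without trend, with pseudocount 10 and with the replicate block. The myosin gene myh7ba went from 665 ± 68.4 to 203 ± 42.8 and from 777 ± 88.7 to 288 ± 29.7 (limma adjusted p = 2.28e-08 and 1.73e-07). Against this direction a gene with the symbol myh6 (ENSDARG00000079564) rose from 127 to 686 in WT and from 77.8 to 560 in KO in group means (limma adjusted p = 4.40e-09 and 9.19e-10). In control hearts this myh6 gene was lower in KO than in WT (-0.69, SE 0.16, limma adjusted p = 0.0370). It was the 1 cardiomyocyte marker of 16 that passed there, beside 1.08% of all genes that were lower. The name table gave the symbol myh6 to another identifier too, ENSDARG00000090637, and which zebrafish myosin gene each is was not decided here. This other identifier fell instead. Its means went from 2567 to 1954 in WT (-0.40, limma adjusted p = 0.0173) and from 2795 to 1818 in KO (-0.64, limma adjusted p = 0.000649). In control hearts its genotype difference was 0.12 and did not pass (limma adjusted p = 0.709). The myosin gene myh7bb was higher in KO control hearts, at 1055 ± 98.8 against 710.2 ± 136 (0.58, SE 0.13, limma adjusted p = 0.0319). In control hearts, leaving out single libraries ended the call of myh6 ENSDARG00000079564 for 9 of the 16 and that of myh7bb for 5. Both calls also ended in limma without trend and with the 8 control libraries alone. That of myh6 ENSDARG00000079564 ended too with library totals alone (-0.63, limma adjusted p = 0.0647), with pseudocount 10 and with the replicate block. This list overlaps the cardiomyocyte markers, and no list here was tested as a set.

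The genes most like irx2 were ranked by the root mean square difference of their log2(signal + 1) profile from that of irx2 over the 16 libraries, each gene centred on its own mean. Among 5930 named genes above the median level the nearest were the orphan receptor gene gpr22 (0.44), the muscle ubiquitin ligase gene fbxo32 (0.45), tbx5 (0.47), mtus1a (0.48) and gja3 (0.49), against 1.35 for a gene that did not vary. The member tbx5 thus ranked at place 3. The next members were tbx20 at place 85, nkx2.5 at place 122 and hand2 at place 142, with differences of 0.86 to 0.91. The gpr22 means were 320 in WT control, 80.0 in WT cryoinjury, 432 in KO control and 133 in KO cryoinjury, the same order of groups as in irx2 and tbx5. That order of means was not particular to these genes. It was also found in tbx20, hand2 and nkx2.5, in the relatives tbx5b and mef2d, and in fbxo32, mtus1a and gja3. As the ranking used all libraries, these values are a description of likeness with no test.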

How the data were processed

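Gene values were a normalized signal that the authors deposited in 1 table of 14500 Ensembl identifiers and 16 libraries; no source used here states how it was scaled. Per the submitters' processing notes, CASAVA 1.8.2, cutadapt, RSEM 1.2.3 and the build Zv9 were used, with no roles given. Per the labels' protocols, TruSeq v2 libraries were made from 1 μg of total RNA, a kit that does not mark strand. Dividing each library by its own step gave whole reads for 100% of values (tolerance 0.01 read), and these recovered reads went into the count tests, where edgeR called 6741 and 6763 genes for injury in WT and KO, 176 and 84 between genotypes in control and injured hearts and 0 for the interaction. Symbols from a name table matched 11702 identifiers and were written in lower case; a list name that was absent took the identifiers carrying the symbol without its paralog suffix, a rule chosen after the files were seen. Of 370 list names 242 were matched. No promoter or protein sequences were used here.

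The design named limma for normalized values: log2(signal + 1), pseudocount 1, was fitted in R 4.3.3 with limma 3.58.1 and its intensity trend as 4 group means over 16 libraries (12 residual and 5.12 prior degrees of freedom), with Benjamini-Hochberg adjustment over 14500 genes. It was also run on simulated data, where few genes changed and all genes had the same spread. That setting differs from these data, so nothing is concluded from it here. Replicates differed by more than sampling noise (chi-square per degree of freedom 6.85 to 19.2). Deviations of same-numbered KO control and KO cryoinjury libraries had correlations of 0.116 to 0.257, and a block fit of these 8 libraries was added after the data were seen. Other same-numbered pairs did not all exceed 0.1, though control pairs across genotypes reached 0.252. No correlations of differently numbered libraries were taken as a baseline, so these values do not show pairing. Alternatives included edgeR 4.0.16 and DESeq2 1.42.0 on recovered reads, other scalings, filters and pseudocounts, and left-out libraries.

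Members and lists were chosen with earlier results of these data known. Named relatives are, per list, up to 4 genes with the smallest p for injury in WT and in KO, and those past the threshold between genotypes; the second tbx2 identifier was named after its values were seen, to complete a count. The 5 genes nearest to irx2 and tert were also named by rule, and krt5 after its values were seen.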

Additional observations from a re-analysis of the deposited data

Results flagged for a closer look

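WT control library 3 stood apart for irx2, at 65.5, where the other 3 WT controls were at 37.8, 34.00 and 33.3. It was the single case among 36 combinations of member and group checked for a library far from the rest of its group. Chance gives such a case in about 1 of 20 combinations, so 1 case among 36 is not read as a result. Leaving this library out gave a WT response of irx2 to injury of -2.47 in place of -2.69 and raised the genotype difference in control hearts from 0.79 to 1.01, as given above.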

How the results depend on the processing

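Of the members' values under the alternatives, 1159 kept their direction and their side of the threshold, 19 no longer passed, 18 newly passed, 18 changed sign while passing under neither setting (size at most 0.0829) and 1 reversed. The reversed value was the WT injury response of gata5, 0.0564 with library totals alone, where the median of all genes was 0.30; the cause was not tested. Leaving out 1 library at a time gave 7 to 8 members and 6009 to 6679 genes called for injury in WT, and 8 members and 6115 to 6995 genes in KO. In control hearts the genotype comparison called 1 member and 215 genes. That count of members became 3 with library totals, 2 with a higher filter on low values, 3 with pseudocount 10, 0 in edgeR, 4 in DESeq2, 0 in limma without trend, 0 with the 8 libraries alone, 2 with the replicate block, 3 without KO cryoinjury libraries 1 and 2, and 0 at a threshold of 0.01. The count of genes became 406 in DESeq2, 134 without trend, 73 with the 8 libraries alone and 46 at the threshold of 0.01. With 1 library left out it was 0 to 3 members and 76 to 361 genes. In injured hearts the comparison called 2 members and 64 genes. With the 8 libraries alone it called 1 member and 25 genes, and without KO cryoinjury libraries 1 and 2 it called 0 members and 5 genes. The genes became 100 with library totals, 215 in DESeq2, 34 without trend, 97 with the replicate block and 13 at the threshold of 0.01. With 1 library left out, 2 members stayed called and the genes ranged from 19 to 84. For the interaction, 0 genes became 20 in DESeq2 and 1 with the replicate block, and 0 to 3 with 1 library left out. The labels tie same-numbered libraries by number only. Pairs other than KO control with KO cryoinjury had correlations of -0.14 to 0.252. The replicate block added hand2 to the control comparison (limma adjusted p = 0.0396). In the KO fit with the replicate block 8 members were called and no member's call changed; of the other named genes gata1a newly passed. Among other named genes, 4101 values kept their call, 62 no longer passed, 50 newly passed and 100 changed sign without passing. Depth limits some named relatives more than the members: tbx1 had 7 to 8 reads in WT control libraries and prrx1 10 to 17 in KO control, where irx2 had 47 to 74 in WT cryoinjury.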
